A study of Homo sapiens with 6 samples.

Results

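The grainyhead factor family is a group of 6 human genes for DNA-binding transcription factors, GRHL1, GRHL2, GRHL3, TFCP2, TFCP2L1 and UBP1. It was followed in MCF10A, an established line of breast epithelium that forms no tumours, by every probe set whose only annotated symbol is one of these names. There were 11 such probe sets of 54613 tested, 3 each for TFCP2 and TFCP2L1, 2 for GRHL1, and 1 each for GRHL2, GRHL3 and UBP1. The arrays fall into MCF10A cells with C/EBPbeta-2, one protein form of the CEBPB transcription factor (3 arrays), and MCF10A cells alone, called control (3 arrays). All 6 cultures shared one medium with horse serum, insulin, hydrocortisone, EGF and cholera toxin, and no further treatment is labelled. How the isoform was brought into the cells, whether the line is 1 clone and whether the control cells carried a vector are not given in the sources used here. Replicates are labelled biological, but whether they were separate cultures is not given, so p-values measure only the spread between these samples.

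The family has 2 subgroups with a related DNA-binding domain. The grainyhead subgroup (GRHL1, GRHL2, GRHL3) is known from epithelia. Its factors bind a site with the core AACCGG there and activate genes of cell junctions and of the skin barrier. Mutual repression with ZEB1, a repressor of epithelial genes, is known for GRHL2. The CP2 subgroup (TFCP2, TFCP2L1, UBP1) is more widely expressed, apart from TFCP2L1, which is known from the collecting duct of the kidney and from pluripotent stem cells.

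The starts of TFCP2L1 and GRHL3 are shown first because these genes had the largest differences in the family. The 250 bases before each start are from RefSeq (GRCh38.p14), 5′ to 3′ on the strand of the gene, and GRHL3 has 2 starts in that table. Of the 6 genes, 5 had an entry. Capitals mark the matches, on either strand, to 4 motifs: the grainyhead core AACCGG, a C/EBP pattern TTNNGNAA, the E-box CACCTG that ZEB and Snail repressors can bind, and the CCAAT box.

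TFCP2L1, chr2:121285203-121285452, minus strand: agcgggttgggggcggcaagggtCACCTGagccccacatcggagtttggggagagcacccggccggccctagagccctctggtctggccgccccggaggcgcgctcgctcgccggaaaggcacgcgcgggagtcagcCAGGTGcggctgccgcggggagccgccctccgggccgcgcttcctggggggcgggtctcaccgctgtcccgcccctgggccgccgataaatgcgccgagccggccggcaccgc
GRHL3, first start, chr1:24319107-24319356, plus strand: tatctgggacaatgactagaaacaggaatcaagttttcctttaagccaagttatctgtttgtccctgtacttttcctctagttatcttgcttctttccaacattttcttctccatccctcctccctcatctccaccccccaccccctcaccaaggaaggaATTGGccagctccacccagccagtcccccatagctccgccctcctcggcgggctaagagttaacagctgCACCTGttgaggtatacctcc
GRHL3, second start, chr1:24322790-24323039, plus strand: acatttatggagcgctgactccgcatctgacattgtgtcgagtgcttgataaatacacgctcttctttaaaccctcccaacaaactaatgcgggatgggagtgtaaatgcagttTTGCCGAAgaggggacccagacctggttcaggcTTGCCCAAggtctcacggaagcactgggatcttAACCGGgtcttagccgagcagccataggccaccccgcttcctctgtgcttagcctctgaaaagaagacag

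TFCP2L1 held 2 E-boxes, whose first bases lie 227 and 113 bases before the start, and no match to the other motifs. The first start of GRHL3 held 1 E-box, 21 bases before it, and 1 CCAAT box on the opposite strand. The second held 2 C/EBP patterns, 136 and 103 bases before it, and 1 grainyhead core, 70 bases before it. Among all 35116 windows of this length, 17.5% held the E-box, 33.2% the C/EBP pattern, 5.99% the grainyhead core and 32.0% the CCAAT box. The motifs do not overlap in these windows, and a match is a run of letters, not a measured site.

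The arrays differed in ways the groups do not explain. The poly-A spike-in RNA was low on 1 array of each group, at 3.85 (log2 intensity) for C/EBPbeta-2 replicate 2 and 3.98 for control replicate 1. The remaining 4 arrays read 7.21 to 8.25, so each level holds both groups. The 18S ribosomal RNA probe sets were highest on C/EBPbeta-2 replicate 1 (12.19) and control replicate 2 (12.17). Array medians lay between 4.46 and 4.56. CEBPB (212501_at) read 10.29, 10.50 and 11.38 on the C/EBPbeta-2 arrays and 11.27, 11.38 and 11.37 on the control arrays. Its difference was -0.62 (SE 0.29, adjusted p = 1.00). Where these probes lie relative to the isoform is not known here, so CEBPB does not check the labels, and the groups are used as labelled.

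The basal keratin KRT5 averaged 12.51 on C/EBPbeta-2 arrays and 12.64 on control arrays. All 4 measured markers of basal mammary epithelium lay above the median of every array, and KRT14 was the 1 that was called (10.33 and 13.34). The summed level (log2) of the 4 ran from 12.99 to 13.26 on C/EBPbeta-2 arrays and from 13.95 to 14.46 on control arrays, and that of 5 luminal markers, 4 of them above every median, from 11.68 to 12.20 with C/EBPbeta-2 and from 11.74 to 11.98 in control cells. For 7 fibroblast markers, 3 of them above every median, it ran from 8.38 to 9.10 with C/EBPbeta-2 and from 9.47 to 11.84 in control cells. Of these DCN, a matrix proteoglycan, averaged 7.55 with C/EBPbeta-2 and 10.16 in control cells without a call, while LUM (2.74 and 2.71) lay below the medians. The sum of 4 leukocyte markers ran from 7.30 to 7.76 with C/EBPbeta-2 and from 6.73 to 7.0 in control cells, and that of 4 endothelial markers from 6.21 to 6.37 and from 6.32 to 6.79, with 1 of 4 above every median in each list. The leukocyte list was brightest at CD14, which averaged 7.08 with C/EBPbeta-2 and 6.16 in control cells without overlap or a call, and the endothelial receptor KDR averaged 4.0 with C/EBPbeta-2 and 4.68 in control cells, also without overlap or a call. The leukocyte antigen PTPRC averaged 3.36 with C/EBPbeta-2 and 3.27 in control cells, and the endothelial cadherin CDH5 2.69 and 2.75, all below the medians. Fewer cells of a type and less RNA per cell cannot be told apart in such samples, and the part of these markers in the results below was not tested.

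TFCP2L1 fell with C/EBPbeta-2, and it was the 1 gene of the family that was called. Its 3 probe sets were lower by 4.52-fold, 4.03-fold and 4.50-fold, and on none of them did the groups overlap. GRHL3 was lower by a like amount, 4.38-fold at its single probe set, but varied more and was not called. GRHL1, GRHL2, TFCP2 and UBP1 were not called at any of their 7 probe sets.

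**Figure D1:**
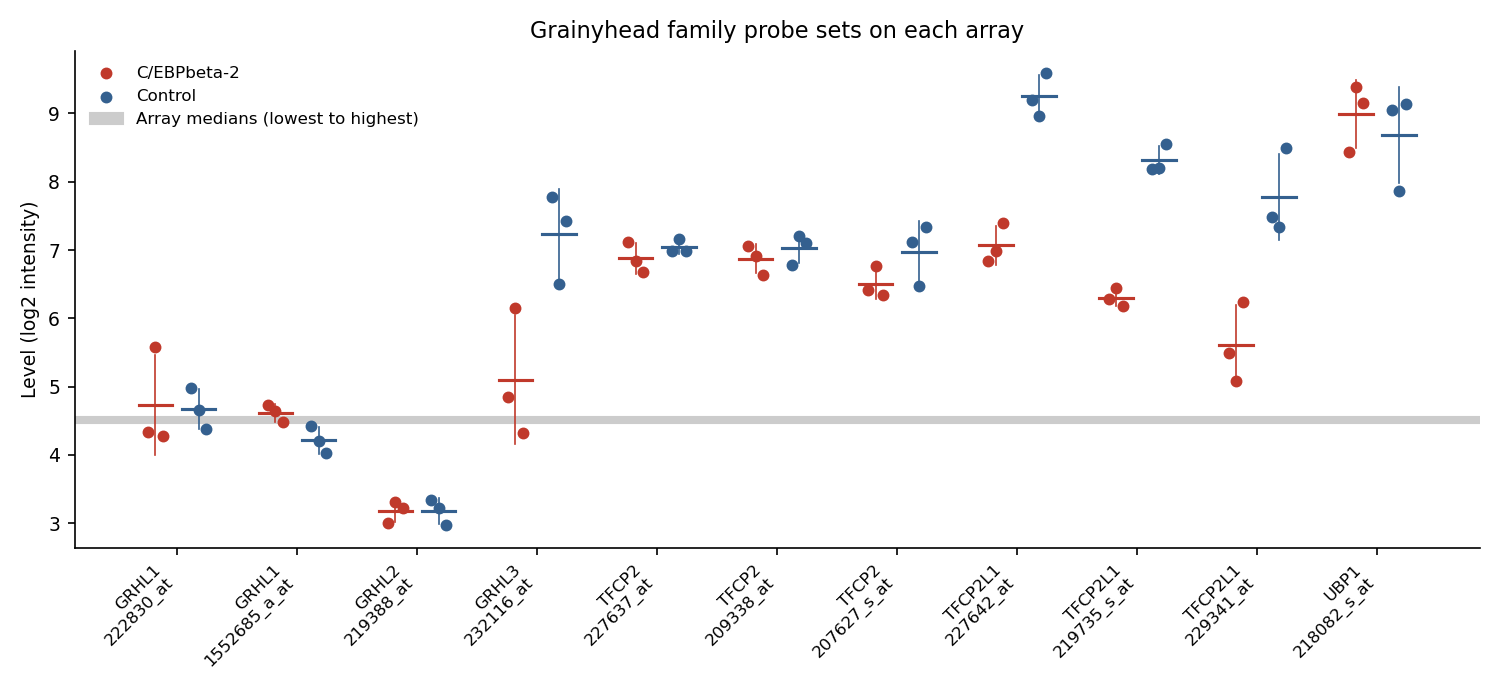
Level (log2 intensity) of the 11 family probe sets on each array. Points are arrays, 3 per group, horizontal lines are group means and vertical lines are 1 SD. The grey band is the range of the 6 array medians. The C/EBPbeta-2 arrays lie below all control arrays at the 3 TFCP2L1 probe sets and at GRHL3.

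In the CP2 subgroup, TFCP2L1, also called LBP-9, encodes a factor that can act as an activator or a repressor. At its brightest probe set, 227642_at, log2 intensity was 6.83, 6.99 and 7.39 on the C/EBPbeta-2 arrays and 9.20, 8.96 and 9.59 on the control arrays. The highest C/EBPbeta-2 array lay 1.57 below the lowest control array. The log2 difference was -2.18 (SE 0.23, interval -2.73 to -1.62), with an adjusted p of 0.0310 over genes and 0.0570 over probe sets. By size of difference TFCP2L1 ranked 112 and by p-value 30 among 19775 genes.

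Probe set 219735_s_at read 6.29, 6.44 and 6.18 on the C/EBPbeta-2 arrays and 8.19, 8.20 and 8.56 on the control arrays. Here the gap between the groups was 1.74, and the SD was 0.13 with C/EBPbeta-2 and 0.21 in control cells (n = 3 each). The log2 difference was -2.01 (SE 0.17, adjusted p = 0.0296 over probe sets), the only call in the family on that scale. Probe set 229341_at read 5.49, 5.09 and 6.24 on the C/EBPbeta-2 arrays and 7.49, 7.34 and 8.5 on the control arrays. Replicate 3 was the highest array of each group, and the groups lay 1.10 apart. Its log2 difference was -2.17 (SE 0.41, adjusted p = 0.293 over probe sets). The 3 probe sets ran alike over the 6 arrays, with Pearson's r between 0.92 and 0.98 as a description. They read the same RNA samples, so they are not separate tests of the gene.

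TFCP2, also called LSF, is the widely expressed founder of the subgroup, known for binding the alpha-globin promoter. At 227637_at it read 7.12, 6.84 and 6.68 on the C/EBPbeta-2 arrays and 6.99, 7.15 and 6.98 on the control arrays. Its difference was -0.16 (interval -0.57 to 0.25). The groups overlapped there, as they did at 209338_at (-0.16, interval -0.62 to 0.30) and 207627_s_at (-0.47, interval -1.09 to 0.15), each with an adjusted p of 1.00. These intervals leave out a fall as large as that of TFCP2L1. The changes of TFCP2L1 and TFCP2 at their brightest probe sets differed by 2.01 (log2), with per-array differences that did not overlap between groups. The exact permutation p was 0.1, the smallest that 3 against 3 arrays allow, and 0.167 after adjustment over the 55 pairs of family probe sets compared. TFCP2 read 6.68 to 7.15, a span narrower than the gap of 1.57 at TFCP2L1. The lack of overlap thus follows from the TFCP2L1 values and is not a separate result.

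UBP1, also called LBP-1a, is needed in mice for the blood vessels of the placenta. Its probe set 218082_s_at read 8.43, 9.38 and 9.15 on the C/EBPbeta-2 arrays and 9.04, 7.87 and 9.14 on the control arrays. The lowest array of each group was the one with the highest 18S ribosomal RNA signal, C/EBPbeta-2 replicate 1 and control replicate 2, and the part of that signal was not tested. The difference was 0.31 (SE 0.41, adjusted p = 1.00), and it was -0.10 without control replicate 2.

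In the grainyhead subgroup, GRHL3 is needed in mice for closure of the neural tube and for the skin barrier. It read 4.85, 6.15 and 4.32 (log2 intensity, 232116_at) on the C/EBPbeta-2 arrays and 7.78, 6.51 and 7.42 on the control arrays. On the linear scale these were intensities of 28.7, 71.1 and 19.9 with C/EBPbeta-2, against 219, 90.9 and 171 in control cells. The groups did not overlap, but their nearest arrays, both replicate 2, lay only 0.35 apart. The log2 difference was -2.13 (SE 0.53, interval -3.41 to -0.85), with an adjusted p of 0.366 over genes and 0.580 over probe sets. By size GRHL3 ranked 124 among the genes, close to TFCP2L1, and by p-value 324. C/EBPbeta-2 replicate 3 fell below every array median, where low values have no stated background, so the size of the difference is less certain.

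GRHL1, which activates desmoglein 1 and is needed in mice for the anchoring of hair, lay near the array medians at both probe sets. At 222830_at it read 4.34, 5.57 and 4.28 on the C/EBPbeta-2 arrays and 4.98, 4.66 and 4.39 on the control arrays. The highest array of each group was the one with the low spike-in signal. The difference was 0.06 (interval -0.85 to 0.96, adjusted p = 1.00), and it was -0.36 without C/EBPbeta-2 replicate 2. At 1552685_a_at it read 4.73, 4.64 and 4.48 with C/EBPbeta-2, against 4.42, 4.21 and 4.02 in control cells. These groups lay 0.06 apart without overlap, and the difference of 0.40 (SE 0.17, adjusted p = 1.00) was not called.

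GRHL2 is known in epithelial cells as an activator of E-cadherin and claudin genes. Its probe set 219388_at read 3.00, 3.31 and 3.22 on the C/EBPbeta-2 arrays and 3.34, 3.22 and 2.97 on the control arrays, under the median on all 6. The difference was 0.00 (interval -0.41 to 0.41, adjusted p = 1.00). At this signal a fall in GRHL2 RNA could hardly be seen, so the lack of a difference does not show that there was none. For a rise in signal, the interval reaches up to 0.41.

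Over the family, limma called 1 of 11 probe sets, where 0.0659% of all probe sets were called (0.0385% lower, 0.0275% higher), and 1 of 6 genes, where 0.263% of all genes were called (0.167% lower, 0.0961% higher). At an unadjusted p under 0.05 there were 4 of 11 probe sets, all lower, against 3.98% of all probe sets in either direction and 2.06% lower. The groups did not overlap at 5 of 11, the 3 of TFCP2L1, that of GRHL3 and 1552685_a_at of GRHL1, against 7.62% of all probe sets (3.75% lower). At gene level they did not overlap at 2 of 6, both lower, against 8.63% of all genes (4.01% lower). The 4 probe sets at an unadjusted p under 0.05 belong to 2 genes, TFCP2L1 and GRHL3. The median difference over the 11 probe sets was -0.16, and over all probe sets it was 0.00.

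**Figure D2:**
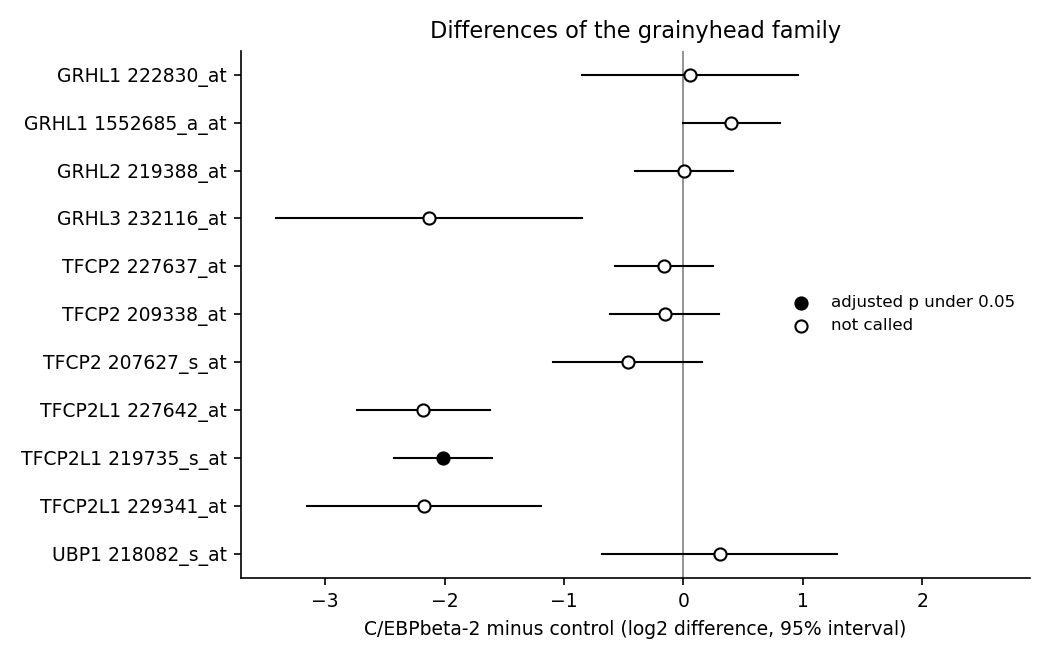
Fitted log2 difference, C/EBPbeta-2 minus control, of the 11 family probe sets with 95% intervals (3 arrays per group). Filled points passed an adjusted p of 0.05 over all probe sets. TFCP2L1 and GRHL3 lie near -2, with the widest interval at GRHL3, and the other genes lie between -0.47 and 0.40.

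Within the spike-in levels, each of which holds both groups, the TFCP2L1 difference at 227642_at was -2.21 at the low level (1 array against 1) and -2.16 at the high one (2 against 2). At 219735_s_at the values were -1.74 and -2.14, and at 229341_at -2.40 and -2.05. GRHL3 differed by -1.62 at the low level and -2.38 at the high one. Its adjusted p was 0.0945 over genes with spike level as a term, still not called, in a range of 0.0945 to 0.951 over 17 alternatives. GRHL1 at 222830_at differed by 0.60 at the low level and -0.21 at the high one. TFCP2L1 kept its gene call with the spike term (adjusted p = 0.0415). Leaving out control replicate 2 kept the call (adjusted p = 0.0455), and leaving out any other array ended it (0.101 to 0.167), while the difference ran only from -2.34 to -2.01 with 1 array left out. The probe set call of 219735_s_at ended with each array left out (adjusted p 0.0592 to 0.189).

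**Figure D3:**
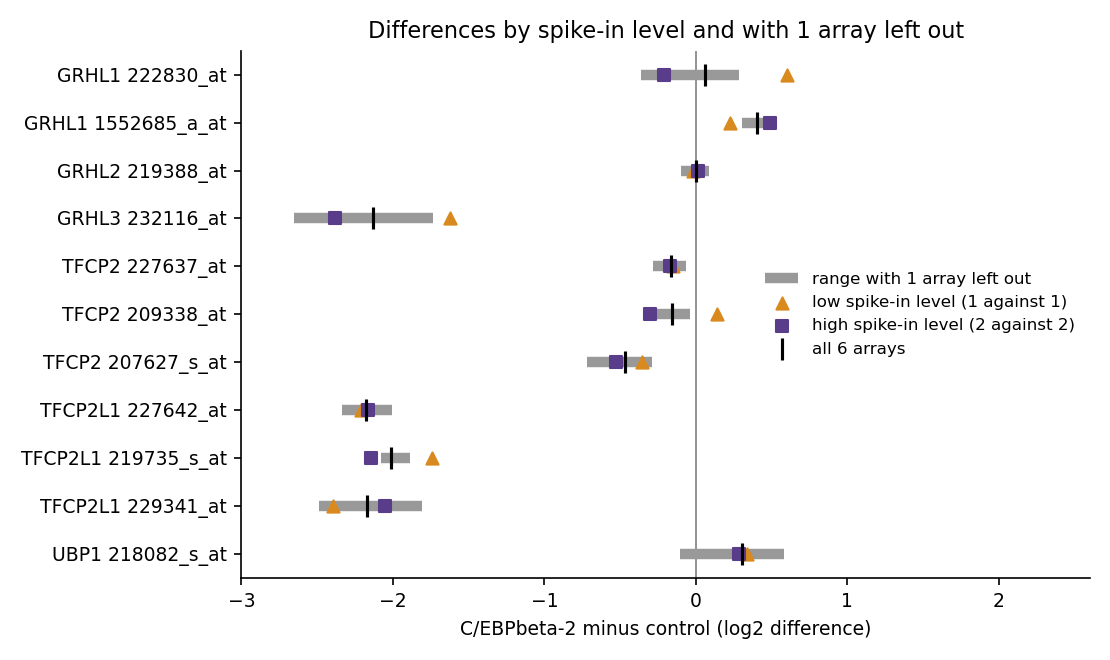
Log2 difference, C/EBPbeta-2 minus control, of the 11 family probe sets over all 6 arrays (black tick), at the low spike-in level (triangle, 1 array against 1), at the high level (square, 2 against 2), and with each array left out in turn (grey bar, lowest to highest). TFCP2L1 and GRHL3 lie below -1.6 under each of these, and GRHL1 222830_at, GRHL2, TFCP2 209338_at and UBP1 reach both sides of 0.

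Across the 6 arrays the level of GRHL3 ran with that of TFCP2L1 at Pearson's r of 0.82, a description in which both the group difference and the shared arrays take part. The genes most like GRHL3 were NRSN2-AS1 (r = 0.99), HACD2, CKB, LDLRAD3 and HEXIM1 (each r = 0.99), of 7078 genes with a log2 range of at least 1. Their differences lay between -1.01 and -0.60, smaller than that of GRHL3, and none was called. Those most like GRHL1 were ARHGAP11A (r = 0.996), SLC15A4, FAM111B, NUTM2B-AS1 and SPDL1, with differences between 0.05 and 0.25. GRHL1 read 5.57 on C/EBPbeta-2 replicate 2 and 4.28 to 4.98 on the other arrays, so 1 array weighs heavily in this order. Those most like GRHL2 were CNRIP1 (r = 0.96), PAPSS2, CARD8-AS1, NFKBIZ and SPATA33, an order of little weight, since GRHL2 read under the median on every array. For TFCP2L1 they were MSLN (r = 0.99; log2 difference -2.74, adjusted p = 0.0578), CLMP (-1.35, adjusted p = 0.0453), SEMA3F (-1.04), IFI16 (-3.50, adjusted p = 0.0650) and DPYSL2 (-1.13). Of these CLMP, an adhesion molecule of the immunoglobulin family, was the 1 that was called, where 0.263% of all genes were. The genes most like TFCP2L1 and GRHL3 were picked over these same arrays, and the group difference takes part in each r. Their lower values with C/EBPbeta-2 follow in part from that choice and are not a separate result.

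Genes known as targets of grainyhead factors were read at their brightest probe sets. Of 9 listed targets of epithelial adhesion and identity, 1 fell, 0 rose and 8 were not called, where 0.263% of all genes were called and 0.167% were called lower. Their median difference was -0.10 against 0.01 over all genes. CDH1, the cell adhesion protein E-cadherin, read 8.75, 8.57 and 8.07 on the C/EBPbeta-2 arrays and 10.58, 10.76 and 10.47 on the control arrays (201131_s_at). The groups lay 1.72 apart, and the difference of -2.14 was called over genes (SE 0.22, adjusted p = 0.0282). It was not called over probe sets (adjusted p = 0.0504), its dimmer probe set 201130_s_at gave -1.75 with overlapping groups, and leaving out any 1 array ended the call (adjusted p 0.0617 to 0.167).

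OVOL2, a zinc-finger repressor of mesenchymal genes, read 5.73, 5.61 and 5.82 with C/EBPbeta-2, against 6.16, 6.31 and 6.88 in control cells. The groups did not overlap, and the difference of -0.73 was not called (adjusted p = 0.572), while its other probe set gave -0.10. ERBB3, a receptor of the EGF receptor family, read 6.56, 6.28 and 6.63 with C/EBPbeta-2, against 6.28, 5.11 and 5.47 in control cells, a difference of 0.87 (adjusted p = 0.744). The nearest arrays of the groups both read 6.28. Its difference was 0.00 at the low spike-in level and 1.30 at the high one. The splicing regulator ESRP1 read 5.73, 8.36 and 7.26 with C/EBPbeta-2, against 8.42, 8.24 and 9.68 in control cells, with overlapping groups. Its difference of -1.66 (adjusted p = 0.957) was -0.06 at the low spike-in level and -2.46 at the high one. The small GTPase RAB25 differed by -0.54 (adjusted p = 1.00) and averaged 3.67 with C/EBPbeta-2 and 4.21 in control cells, under the array medians. The other 4, CLDN3, CLDN4, EPCAM and SPINT1, differed by -0.10 to 0.03. CLDN3 averaged 4.02 with C/EBPbeta-2 and 4.01 in control cells, also under the array medians.

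Of 4 listed targets of the epidermal barrier and of wound closure, 0 passed in limma, where 0.263% of all genes did. Only 1 had an unadjusted p below 0.05, as did 5.4% of all genes (2.74% lower). That was TGM1, the transglutaminase that crosslinks the cornified envelope and a known target of GRHL3. It read 5.37, 5.52 and 4.80 on the C/EBPbeta-2 arrays and 8.20, 7.13 and 7.69 on the control arrays. The groups lay 1.61 apart, wider than for GRHL3, and the difference was -2.44 (SE 0.32, adjusted p = 0.0578). It was called in 6 of 17 alternatives (adjusted p 0.0162 to 0.317), among them the spike term (0.0311). TGM1 and GRHL3 ran together over the 6 arrays at r = 0.94 as a description, sharing arrays and the group difference. This was the highest r with GRHL3 among the 28 listed genes. The other listed grainyhead targets ran from 0.86 (CDH1) down to -0.63 (ARHGEF19), and TWIST1, listed as an opposed repressor, was at 0.82. These r values, of both signs, are a description over 6 arrays, and whether the targets follow GRHL3 was not tested. DSG1, the desmosomal cadherin desmoglein 1, differed by -0.37 and TGM5 by -0.34, with overlapping groups. DSG1 averaged 3.14 with C/EBPbeta-2 and 3.51 in control cells, under the array medians, where a fall could hardly be seen. The remaining gene of the list, ARHGEF19, went the other way, with a difference of 0.31 and overlapping groups.

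Of 5 listed repressors opposed to grainyhead factors, limma called 0, where 0.263% of all genes were called. None had an unadjusted p under 0.05 (0 of 5), against 5.4% of all genes, so these counts say little of the list. The median difference was -0.20. ZEB1 read 4.02, 6.38 and 6.05 with C/EBPbeta-2, against 6.18, 4.39 and 5.01 in control cells, so both groups spanned the same range. Its difference was 0.29 (interval -1.44 to 2.01), and TWIST1 differed by -0.64 (adjusted p = 1.00).

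Of 5 listed targets of the CP2 subgroup, 0 passed in limma, where 0.263% of all genes did. At an unadjusted p below 0.05 there were 0 of 5, against 5.4% of all genes, so these counts say little of the list. The matrix protein fibronectin, FN1, read 10.18, 10.89 and 11.43 with C/EBPbeta-2, against 11.40, 9.65 and 9.23 in control cells, a difference of 0.74 with overlapping groups. The difference was -0.51 at the low spike-in level and 1.37 at the high one, so its direction turned between them. The protease MMP9 differed by -0.56 and by 0.08 without control replicate 2, which read 6.34 against 4.27 to 4.59 on the other 5 arrays. TYMS differed by 0.55 at 202589_at with overlapping groups (limma unadjusted p = 0.0544), and by 0.60 and 0.20 at its other probe sets. The 5 differed by a median of 0.16, with 4 higher and 1 lower.

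Of 5 listed protein partners 0 passed in limma, where 0.263% of all genes did. Only 1 had an unadjusted p below 0.05, as did 5.4% of all genes, so a single gene of 5 says little of the list. This was LMO4, a LIM-domain adaptor that works with GRHL3 in mice. At 209205_s_at it read 7.53, 8.10 and 8.75 on the C/EBPbeta-2 arrays and 6.61, 6.91 and 7.45 on the control arrays. The groups lay 0.08 apart, and the difference of 1.13 (SE 0.36) was not called (adjusted p = 0.623). Its other 4 probe sets, all dimmer, differed by 0.02 to 0.69. APBB1 (0.25) and PIAS1 (-0.06) were not called, and their groups overlapped.

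Over all 28 listed genes 1 was called, where 0.263% of all genes were. At an unadjusted p under 0.05 there were 3 lower (CDH1, OVOL2, TGM1) and 2 higher (ERBB3, LMO4), against 5.4% of all genes in either direction. The median difference over the 28 was -0.03.

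**Figure D4:**
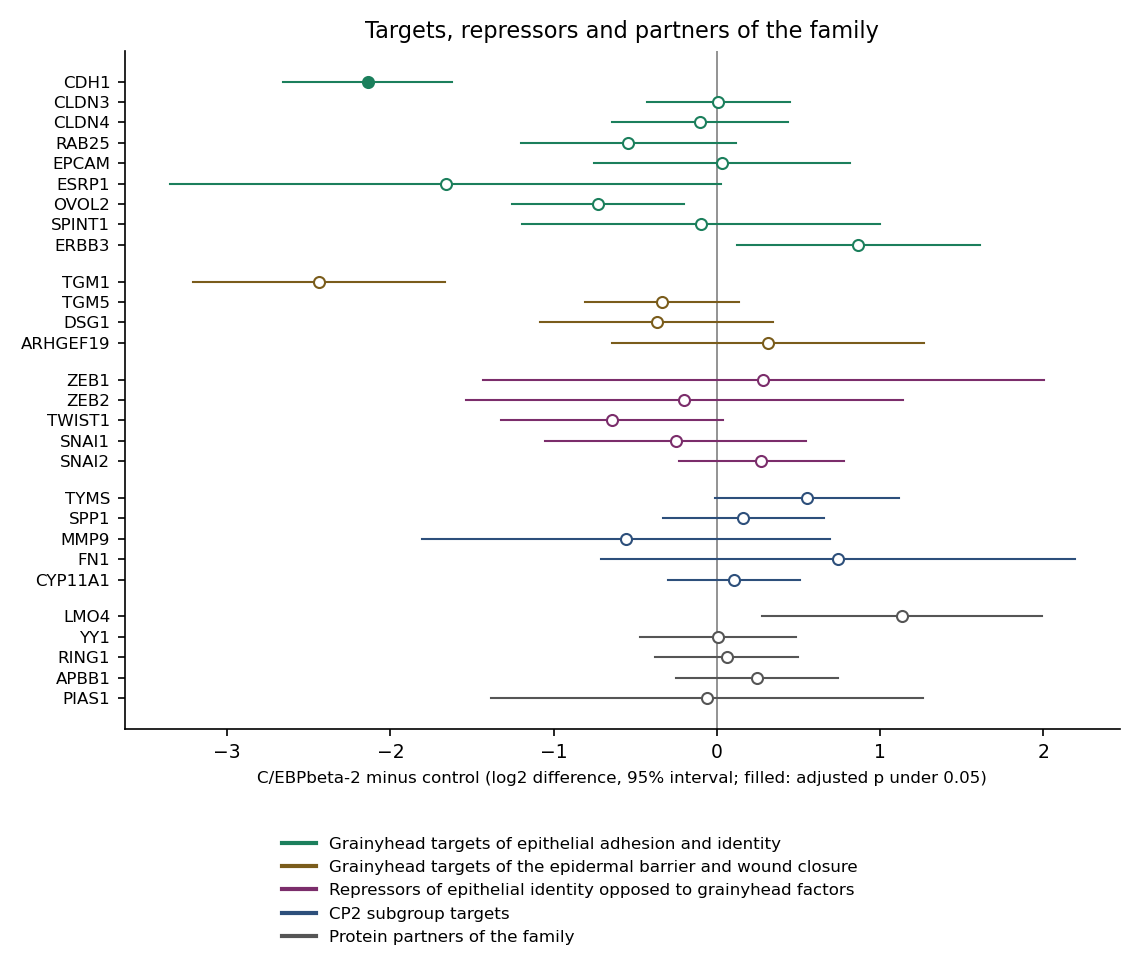
Fitted log2 difference, C/EBPbeta-2 minus control, with 95% intervals, of the 28 listed genes at their brightest probe set (3 arrays per group), coloured by list. The filled point, CDH1, passed an adjusted p of 0.05 over all genes. TGM1 and CDH1 lie lowest, and LMO4 and ERBB3 highest.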

How the data were processed

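Expression was measured on 6 Affymetrix arrays, 3 per group, grouped by sample title. The authors deposited 1 intensity for each probe set on each array. RMA, a multi-array summary of probes, is listed in the submitters' processing notes, its version not given. RMA normally returns log2 values, but these intensities were linear (4.17 to 17825), so log2 was taken with no pseudocount and no further normalization. Detection calls and depth are not used here, and the number of arrays limits the precision.

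The 62 manufacturer controls were set aside and 54613 probe sets were tested with limma 3.58.1 (lmFit and eBayes, R 4.3.3), two-sided, C/EBPbeta-2 minus control, with no covariate. Benjamini-Hochberg adjustment ran over all probe sets, or over 19775 genes, each read at its brightest probe set (highest mean over the 6 arrays, with p from the same fit). All adjusted p-values are limma's unless called exact, and a call is an adjusted p under 0.05. Each SD covers the 3 arrays within 1 group, and SE and intervals (95%) are those of the fitted difference. Gene names come from the probe annotation: 41091 probe sets had 1 symbol, 1801 several and 11721 none. Of the 41091, 41037 matched RefSeq by gene ID.

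The family, the lists and the tests were chosen with earlier results of these data known. Named are all family probe sets, CEBPB, and, for GRHL1, GRHL2 and GRHL3, the 5 genes of highest Pearson's r. Also named are the listed genes at an unadjusted p under 0.05 with up to 2 more per list by size. Some further listed genes were added after values were seen. The genes most like TFCP2L1 and the promoter motifs were chosen after values were seen. Alternatives left out each array, added a block or spike term, and changed normalization, filter, prior and weights.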

Additional observations from a re-analysis of the deposited data

How the results depend on the processing

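limma called 36 probe sets and 52 genes over the whole array. With 1 array left out in turn the counts ran from 5 to 37 and from 7 to 57. With the replicate number as a block both were 0, with 1701 probe sets and 847 genes at an unadjusted p under 0.05, and the family and the listed genes had 0 calls, so that TFCP2L1 (adjusted p = 0.157) and CDH1 (0.157) lost theirs. Whether equal numbers mark paired samples is not given. Deviations from the group means correlated at -0.45, -0.55 and 0.42 for replicates 1, 2 and 3, which cannot settle it with 3 arrays per group. They correlated at 0.66 between C/EBPbeta-2 replicate 2 and control replicate 1, the arrays of low spike-in signal, and at 0.64 between C/EBPbeta-2 replicate 1 and control replicate 2, the arrays of highest 18S signal. The spike term sets the first of these couples apart, and no fit used the second. Whether the block or the main fit suits these samples was not tested, so the loss of calls under the block stands as a limit. At the high spike-in level alone the counts were 6 and 13, and with array weights 122 and 122. Probe sets called were 67 with a trended robust prior, 92 at a threshold of 0.1, 78 without dim probe sets and 0 without moderation (2055 at an unadjusted p under 0.05).

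Of the family's 11 probe sets 1 was called, and 2 with quantile normalization, array weights, a threshold of 0.1 or dim probe sets left out. The count was 0 at the high level alone, with the trended robust prior, without moderation, and with any 1 array left out (0 to 0). The 1 family gene called became 0 at the high level alone and 0 to 1 with an array left out. Of the listed genes 1 was called, and 2 with the spike term, quantile normalization, array weights or dim probe sets left out, 0 at the high level alone, and 0 to 1 with an array left out, where the 1, without control replicate 2, was TGM1 (adjusted p = 0.0482) and not CDH1 (0.0617). With probe sets averaged per gene the 1 was also TGM1 (0.0414), and CDH1 had 0.194. Without shared-sequence probe sets the count was 0 because both CDH1 probe sets were removed, so CDH1 was not tested there.

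Differences changed sign for GRHL1 222830_at (-0.36 to 0.28 with an array left out, -0.21 at the high level alone), GRHL2 (-0.10 to 0.089), UBP1 (-0.10 to 0.58), ZEB1 (-0.16 to 1.02), MMP9 (-0.95 to 0.082) and PIAS1 (-0.65 to 0.39, and 0.17 at the high level alone), none of them called. TFCP2L1 and GRHL3 stayed lower under every alternative run. The causes were not tested. Signals near or under the array medians, as for GRHL1 and GRHL2, limit what could be seen.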
